A study of Mus musculus with 6 samples.

Results

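The genes of MHC class I antigen presentation were followed in single-nucleus RNA-seq (snRNA-seq) of subcutaneous TC1 tumors. The 9 genes were the heavy chains H2-D1 and H2-K1, the light chain B2m, the peptide transporter subunits Tap1 and Tap2, the loading chaperone Tapbp, the transactivator Nlrc5, and the immunoproteasome subunits Psmb8 and Psmb9. They were picked by symbol as members of the pathway, with no threshold on their values, and were 9 of the 22623 genes listed in each of the 6 count matrices. TC1 is a single mouse lung epithelial tumor line, which was implanted and does not itself carry the conditional allele. All host mice were MCT2 loxP/loxP with a Cre transgene on a C57BL/6 background and were 8 weeks old at the start. Tamoxifen for 5 days gave the MCT2 knockout (KO) group, and vehicle over the same time gave the control (CO) group, so both groups carried the floxed allele and Cre. Whole tumors were taken after 24 days of growth and frozen, and 3 libraries were made per group. The labels give the tissue as lung, although the tumors grew under the skin.

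MHC class I molecules display peptides from inside the cell to CD8 T cells. The proteasome cuts proteins into peptides, with Psmb8 and Psmb9 replacing constitutive catalytic subunits under interferon, the Tap1 and Tap2 transporter carries the peptides into the endoplasmic reticulum, and Tapbp (tapasin) bridges the transporter to a heavy chain that is paired with B2m. Nlrc5 switches on several of these genes through an enhanceosome at their promoters, and interferons raise most genes of the pathway.

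Of the 9 genes, 7 lie within the MHC on chromosome 17, B2m lies on chromosome 2 and Nlrc5 on chromosome 8 (GRCm38, GENCODE vM21). Tap1 (chr17:34187553-34197225, plus strand) and Psmb9 (chr17:34181987-34187764, minus strand) overlap at their starts and are read from opposite strands, and whether the counting used strand is not given in the sources used here. Psmb8 (chr17:34197721-34201454) and Tap2 (chr17:34203527-34216321) follow on the plus strand. Tapbp lies at chr17:33915899-33929292, where it overlaps Zbtb22 on the same strand, and reads of those genes may not be separable. H2-K1 (chr17:33996017-34000347) and H2-D1 (chr17:35262730-35267499) are near copies of other class I genes. Of all 90-base windows in the transcripts, 4.25% for H2-D1 and 1.54% for H2-K1 also occurred in another gene. The share of their counts that this affects was not measured.

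Promoter sequences were available for 7 of the 9 genes, all except Tap2 and Nlrc5, as the 250 bases before the RefSeq start (GRCm38.p6). They are shown for the heavy chains, the light chain and Tapbp, as examples of genes with and without a match to an interferon motif. Both strands were searched for 3 interferon motifs of 9 letters, namely GAAANNGAA, GAANNGAAA and TTCNNNGAA. Capitals mark the matches. The RefSeq starts of H2-D1 and Tapbp lie inside the GENCODE spans given above.
H2-D1, chr17:35262844-35263093, plus strand: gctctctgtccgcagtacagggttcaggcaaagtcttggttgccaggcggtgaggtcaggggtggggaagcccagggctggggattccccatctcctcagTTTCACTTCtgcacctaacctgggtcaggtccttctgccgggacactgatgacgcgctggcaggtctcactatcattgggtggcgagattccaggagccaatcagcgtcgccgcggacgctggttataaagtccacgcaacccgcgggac
H2-K1, chr17:34000348-34000597, minus strand: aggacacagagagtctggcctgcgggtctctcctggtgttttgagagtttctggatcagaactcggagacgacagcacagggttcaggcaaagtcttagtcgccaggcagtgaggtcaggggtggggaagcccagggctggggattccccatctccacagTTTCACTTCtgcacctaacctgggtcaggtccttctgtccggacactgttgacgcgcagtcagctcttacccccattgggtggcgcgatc
B2m, chr2:122147437-122147686, plus strand: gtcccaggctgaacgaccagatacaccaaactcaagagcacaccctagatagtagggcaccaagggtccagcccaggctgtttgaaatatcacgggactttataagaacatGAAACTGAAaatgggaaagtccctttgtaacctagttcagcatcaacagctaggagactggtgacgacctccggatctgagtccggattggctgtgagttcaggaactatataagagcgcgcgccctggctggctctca
Tapbp, chr17:33919228-33919477, plus strand: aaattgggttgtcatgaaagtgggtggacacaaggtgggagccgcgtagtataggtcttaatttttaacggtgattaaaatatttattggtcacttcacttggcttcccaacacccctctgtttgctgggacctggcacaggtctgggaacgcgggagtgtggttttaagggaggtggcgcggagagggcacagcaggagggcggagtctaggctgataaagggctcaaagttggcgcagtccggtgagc
H2-D1 and H2-K1 held the same 9 letters, a match to GAANNGAAA on the other strand, at 150 to 142 and at 90 to 82 bases before the start. B2m held a match to GAAANNGAA at 139 to 131 bases before the start. None of the 3 motifs occurred in the Tapbp window, nor in those of Tap1 and Psmb9, and Psmb8 held TTCNNNGAA at 97 to 89 bases before its start. Of 32851 promoters of the same length, 7.13% held GAAANNGAA, 6.31% held GAANNGAAA and 7.02% held TTCNNNGAA. GAAANNGAA and GAANNGAAA can overlap, and none of the windows held both. ATTGG, the core of the Y box, occurred in all of the 7 genes except Psmb8 and in 33.8% of all promoters. A match is a run of letters in the window and was not tested for binding.

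The 6 libraries held 18865 barcodes, of which 18014 passed filters on genes and mitochondrial counts, and between 13252572 and 22057084 unique molecular identifiers (UMIs) each. Median depth per nucleus ranged from 1099 to 4898 UMIs, and any pair of libraries shared 19 to 25 barcodes. Nuclei were assigned by summed UMIs of 10 markers per class to tumor (8716 nuclei), macrophage (4065) and T/NK (443), while 4074 nuclei stayed unclassified and 521 carried markers of several classes and were set apart. Endothelial, dendritic, fibroblast, muscle and adipocyte markers placed 32 to 48 nuclei each. Tumor nuclei had a median of 5488 UMIs, macrophage nuclei 1232 and T/NK nuclei 958. Tumor markers were also found in host nuclei, with medians of 0 to 26.5 per 10000 UMIs in the macrophage nuclei of a library and 0 to 34.9 in T/NK nuclei, highest in KO 2 and KO 3. MCT2 itself (Slc16a7) was not lower under the KO label. Its level in macrophage nuclei was 101, 89.3 and 195 counts per 1000000 UMIs of the class (CPM) in CO 1, CO 2 and CO 3 and 137, 151 and 161 in KO 1, KO 2 and KO 3. The deleted exons are not given in the sources used here, and a 3′ tag outside them checks nothing, so the directions below are those of libraries labelled KO and CO.

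The first comparison asked whether tumor nuclei express the class I pathway at the level of host immune nuclei. Summed per library and class, and expressed in CPM, all 9 genes were found in tumor nuclei of all 6 libraries, at 47.1% to 207% of the macrophage level. None of the 9 differed past both thresholds. The 207% was that of Psmb8 in KO 2, over few macrophage UMIs, and the next highest value was 164%. A lower sum may mean fewer nuclei that express the gene or less RNA in each of them, which cannot be told apart in sums. A call required an adjusted p of at most 0.05 and a log2 fold change of 0.58 or more in either direction (edgeR's quasi-likelihood test with Benjamini-Hochberg adjustment over all genes tested). Between tumor and macrophage nuclei of the same library, 0 of the 9 genes were called, where 52.2% of all 11802 genes tested were. DESeq2 also called 0 of the 9. At adjusted p alone 4 of the 9 passed, against 69% of all genes, and the same number had an unadjusted p under 0.05, against 8409 of all genes. The median log2 fold change of the 9 was -0.21, beside 0.0011 for all genes tested.

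The heavy chains, which bind the peptide, did not separate the classes. H2-D1 stood at 3004, 2443 and 1439 CPM in tumor nuclei of CO 1, CO 2 and CO 3 and at 2381, 444 and 884 in KO 1, KO 2 and KO 3. In macrophage nuclei of the same libraries it stood at 1832, 1772 and 1238 and at 2119, 628 and 958. Tumor nuclei were above macrophage nuclei in 4 of 6 libraries and below them in KO 2 and KO 3. The log2 fold change was 0.10 (SE 0.15, adjusted p = 0.559 by edgeR). H2-K1 stood at 3566, 2961 and 1634 CPM in the CO tumor nuclei and at 3084, 826 and 1269 in the KO tumor nuclei. Its macrophage levels were 2304, 2152 and 1469 in CO and 2760, 1320 and 1659 in KO. The signs divided in the same way, and the log2 fold change was -0.0020 (SE 0.17, adjusted p = 0.993 by edgeR).

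B2m, the invariant light chain, was lower in tumor than in macrophage nuclei. It stood at 2178, 1715 and 1297 CPM in the CO tumor nuclei and at 1785, 788 and 1171 in the KO tumor nuclei. Macrophage nuclei had 1902, 1909 and 1890 in CO and 2357, 1673 and 2277 in KO. The macrophage values were close to each other in the CO libraries (SD 9.76) and spread more in the KO libraries (SD 374). Tumor nuclei were lower in 5 of 6 libraries, and CO 1 was the exception. The log2 fold change was -0.55 (SE 0.17, adjusted p = 0.00803 by edgeR), which passed the adjusted p and missed the fold threshold. It ranged from -0.70 to -0.37 with a library left out. B2m was called without CO 1, without CO 2 or without KO 1, and Psmb9, described below, was called without CO 1.

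The transporter subunits went different ways. Tap2 was higher in tumor nuclei of all 6 libraries, at 180, 172 and 134 CPM in CO and 154, 83.6 and 112 in KO, beside macrophage levels of 110, 108 and 82.4 and of 115, 72.8 and 96.6. Its log2 fold change was 0.44 (SE 0.11, adjusted p = 0.00199 by edgeR), the only positive value among the 4 past the adjusted p. Tap1 had 122, 116 and 83.4 CPM in CO tumor nuclei and 105, 68.9 and 94.8 in KO tumor nuclei. Tumor nuclei exceeded macrophage nuclei in Tap1 in 2 of 6 libraries, CO 1 and CO 2, with a log2 fold change of -0.22 (SE 0.14, adjusted p = 0.181 by edgeR). Tapbp stood at 177, 159 and 143 CPM in CO tumor nuclei and at 135, 79.8 and 131 in KO, and at 161, 126 and 117 and 146, 104 and 185 in macrophage nuclei. Tumor nuclei were higher in 3 of 6 libraries, all CO, and the log2 fold change was -0.095 (SE 0.12, adjusted p = 0.509 by edgeR).

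Nlrc5, the transactivator, was lower in tumor nuclei of all 6 libraries. It stood at 227, 213 and 276 CPM in CO tumor nuclei and 222, 268 and 335 in KO tumor nuclei, beside 367, 301 and 391 and 274, 275 and 381 in macrophage nuclei. The log2 fold change was -0.44 (SE 0.098, adjusted p = 0.000969 by edgeR). Of the immunoproteasome subunits, Psmb9 was lower in tumor nuclei of 5 of 6 libraries, with a log2 fold change of -0.55 (SE 0.11, adjusted p = 0.000342 by edgeR). KO 2 was the exception, where the macrophage value rested on 14 UMIs. Psmb8 had a log2 fold change of -0.21 (SE 0.12, adjusted p = 0.146 by edgeR), and its KO 2 macrophage value rested on 6 UMIs.

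**Figure D1:**
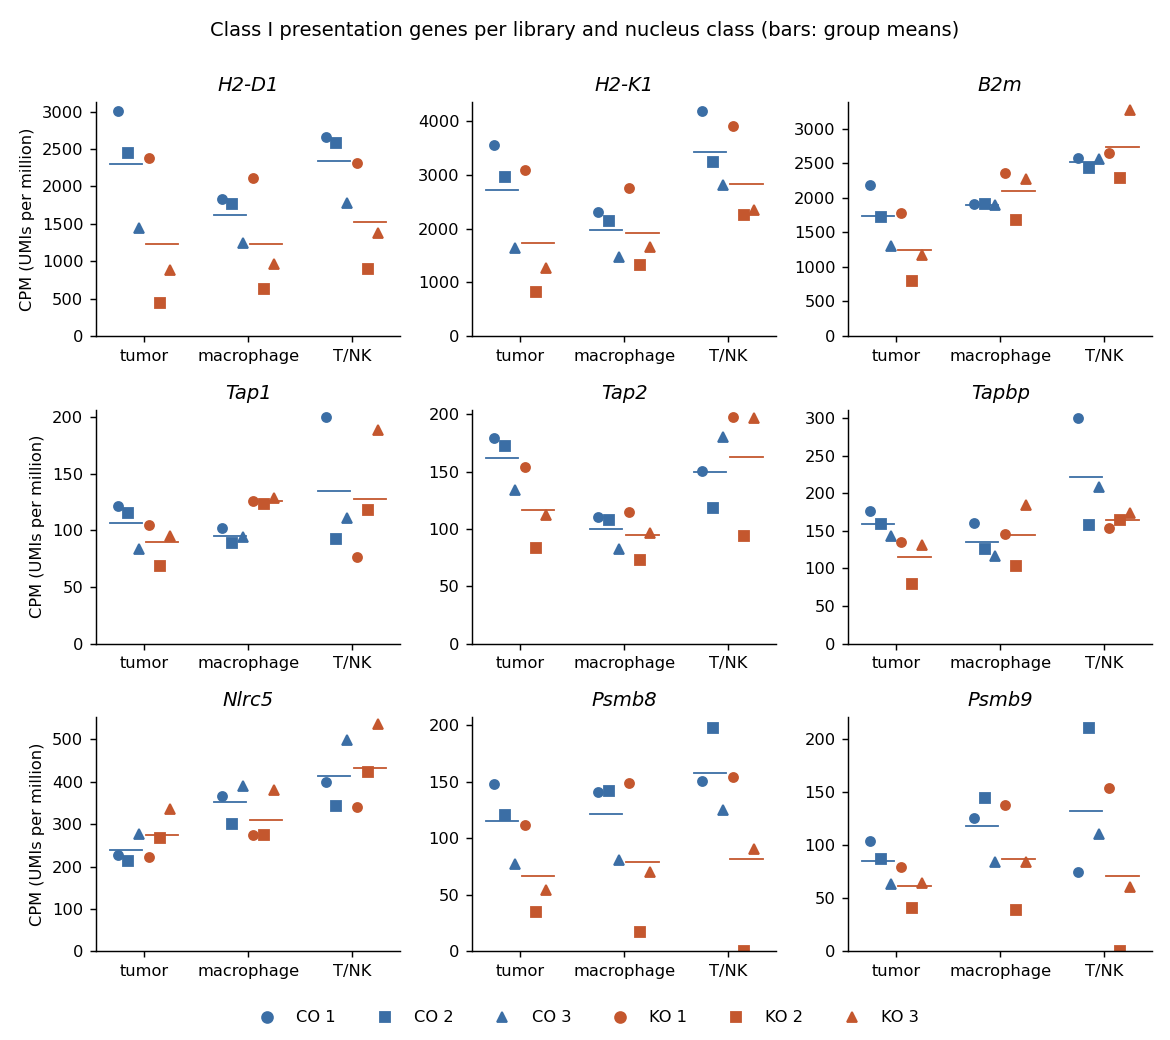
Level of each gene in CPM (vertical axis, one panel per gene) in tumor, macrophage and T/NK nuclei, with a point per library (3 CO and 3 KO) and bars at the group means. Tumor and macrophage points overlap for most genes, H2-D1 in tumor nuclei spans 444 to 3004, and Tap2 is higher in tumor nuclei of every library.

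Leukocyte RNA in the tumor class was gauged with genes of white cells. Ptprc, the CD45 antigen of all leukocytes, reached 1.02% to 3.24% of its macrophage level in tumor nuclei, and the summed MHC class II genes reached 3.89% to 11.2%. The class I genes reached 47.1% to 207% over genes and libraries. The top value was that of Psmb8 in KO 2, over a macrophage level of 16.8 CPM, and the next was 164% (H2-D1 in CO 1). H2-D1 ranged from 70.7% to 164%, Tap2 from 115% to 163% and Nlrc5 from 61.9% to 97.4%. The lowest class I value was above the highest class II sum. In tumor nuclei without any macrophage or T/NK marker UMI, 0 of the 9 were called as well. In the reverse direction, Pdgfra, a growth factor receptor found mainly in the tumor class, reached 7.54% to 20.2% of its tumor level in macrophage nuclei, highest in KO 3. The part of such RNA in the macrophage values was not tested.

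**Figure D2:**
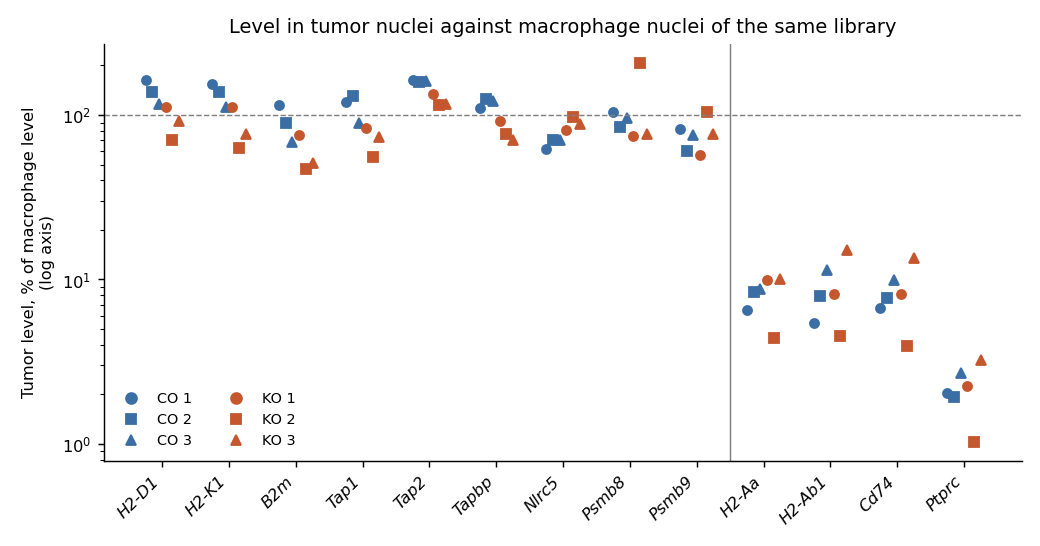
Level in tumor nuclei as a percent of the level in macrophage nuclei of the same library (log vertical axis), with a point per library. Shown are the 9 genes and, as gauges of leukocyte RNA, the class II genes H2-Aa, H2-Ab1 and Cd74, and Ptprc. The class I genes lie between 47.1% and 207%, the latter for Psmb8 in KO 2 over few macrophage UMIs. Below them lie H2-Aa (4.39% to 10%), H2-Ab1 (4.54% to 15.1%), Cd74 (3.96% to 13.4%) and Ptprc (1.02% to 3.24%).

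Other genes of the pathway were counted in the same contrast. Of 6 other proteasome genes, 5 were called lower, among them Psmb10, the remaining inducible catalytic subunit (log2 fold change -1.35, SE 0.18), and the activator subunits Psme1 (-1.12, SE 0.11) and Psme2 (-0.83, SE 0.18). The constitutive subunits Psmb5 and Psmb6 were called lower as well, and Psmb7 (0.16) was the gene not called. Of 5 loading and trimming genes, 2 were called lower, the trimming peptidase Erap1 (-1.18, SE 0.11) and the tapasin-related Tapbpl (-1.36, SE 0.28). Among 10 class Ib and related genes, 3 were called lower, led by H2-T24 (-4.95, SE 0.16) and H2-T23 (-1.77, SE 0.16), while H2-Q4 (0.54) and H2-Q6 (0.53) passed the adjusted p in the other direction without reaching the fold. Of 10 regulators, 6 were called lower, among them the interferon signal transducer Stat2 (-1.70, SE 0.095) and the interferon regulatory factors Irf1 (-1.37, SE 0.11), Irf9 (-1.20, SE 0.10) and Irf2 (-0.61). The other 4 regulators were higher in tumor nuclei, and 3 of them passed the adjusted p without reaching the fold. All 4 interferon receptor genes tested were called lower in tumor nuclei, at -1.84 to -2.87, and so were all 5 class II genes, at -3.67 to -5.41, the latter for their master regulator Ciita. Of 8 interferon-stimulated genes 6 were called lower, and of 6 genes associated with interferon gamma 4 were. The share of all genes called in either direction was 52.2%.

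Shares of nuclei with a UMI were compared after each nucleus was thinned to 1000 UMIs. Nuclei with fewer UMIs were left out. In a library these were 10 to 71 of 796 to 2516 tumor nuclei and 74 to 333 of 220 to 1129 macrophage nuclei. The thinned shares in macrophage nuclei thus describe the deeper part of that class. H2-D1 was found in 71.8% of thinned tumor nuclei and 69.9% of thinned macrophage nuclei (mean over 6 libraries), and H2-K1 in 80.0% and 80.9%. Tap2 was found in 13.3% of tumor and 8.12% of macrophage nuclei and was higher in 6 of 6 libraries, whereas Nlrc5 (21.2% and 28.0%) and Psmb9 (7.18% and 10.3%) were lower in 6 of 6. Each of these 3 reached p = 0.03125 in an exact two-sided sign-flip permutation test, the smallest p that 6 libraries allow, and 0.0938 after Benjamini-Hochberg adjustment over the 9 genes, so 0 of 9 passed. Before thinning, H2-D1 was found in 96.0% of tumor and 81.8% of macrophage nuclei, at depths that differ between the classes as given above.

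Against T/NK nuclei, 1 of the 9 genes was called, where 35.4% of 11354 genes were. At adjusted p alone 2 of the 9 passed, against 36.7% of all genes. B2m was the gene called, at 2567, 2433 and 2553 CPM in T/NK nuclei of CO and 2649, 2283 and 3262 in those of KO. Tumor values of B2m lay below the T/NK value of their own library in every case. The log2 fold change of tumor over T/NK nuclei was -0.61 (SE 0.20, adjusted p = 0.00797 by edgeR), and it ranged from -0.73 to -0.45 with a library left out. The call was lost without CO 3, without KO 2 or without KO 3. Nlrc5 passed the adjusted p only (-0.46, SE 0.18, adjusted p = 0.0297 by edgeR), with 401, 342 and 500 CPM in T/NK nuclei of CO and 341, 424 and 536 in those of KO. H2-K1 was at -0.36 (SE 0.20) and H2-D1 at -0.0095 (SE 0.20). Tap1 was at -0.18 (SE 0.23), Tap2 at 0.026 (SE 0.21), Tapbp at -0.21 (SE 0.20), Psmb8 at -0.20 (SE 0.23) and Psmb9 at -0.23 (SE 0.25). The T/NK class held 33 to 128 nuclei per library, and Psmb8 and Psmb9 had 0 UMIs in the 33 T/NK nuclei of KO 2. The median over all genes tested was 0.27 in this contrast, and that of the 9 was -0.21.

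The next comparison asked how the pathway behaves in tumor nuclei that respond to interferon. Ifit1 and Rsad2 are classical interferon-stimulated genes, and 861 of 8716 tumor nuclei (9.88%) held at least 1 UMI of both, 6.28% to 12.5% per library. They were compared with the 5916 tumor nuclei that held neither gene. The nuclei with both genes expressed Nlrc5 and Tapbp at higher levels and the heavy chains H2-D1 and H2-K1 at fitted levels of 0.964 times those of the other nuclei. Past both thresholds 0 of 9 genes were called by edgeR and 0 by DESeq2, where 2.35% of 11224 genes were called. At adjusted p alone 3 of 9 passed, against 7.39% of all genes, and 4 of 9 had an unadjusted p under 0.05, against 2083 of all genes (18.6%).

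Nlrc5 stood at 299, 266 and 415 CPM in positive nuclei of CO and 253, 317 and 393 in those of KO. In negative nuclei it stood at 201, 192 and 247 and at 209, 253 and 316. It was higher in positive nuclei of 6 of 6 libraries, with a log2 fold change of 0.45 (SE 0.050, adjusted p = 2.35e-08 by edgeR). Tapbp stood at 228, 199 and 184 CPM in positive nuclei of CO and 160, 122 and 150 in those of KO, beside 156, 138 and 133 and 124, 67.9 and 122 in negative nuclei. It was also higher in 6 of 6 libraries, with a log2 fold change of 0.53 (SE 0.056, adjusted p = 1.25e-08 by edgeR). The change of B2m was small and in the other direction. B2m was lower in positive nuclei of 6 of 6 libraries, with a log2 fold change of -0.11 (SE 0.032, adjusted p = 0.0314 by edgeR).

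The remaining 6 genes did not pass. H2-D1 was at -0.054 (SE 0.033, adjusted p = 0.404 by edgeR) and H2-K1 at -0.053 (SE 0.031, adjusted p = 0.392 by edgeR). Tap1 was at 0.12 (SE 0.066), Tap2 at 0.11 (SE 0.051), Psmb9 at 0.13 (SE 0.071) and Psmb8 at 0.019 (SE 0.065). The heavy chain promoters printed above held an interferon motif and the Tapbp window held none of the 3, which is a description of the letters only.

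**Figure D3:**
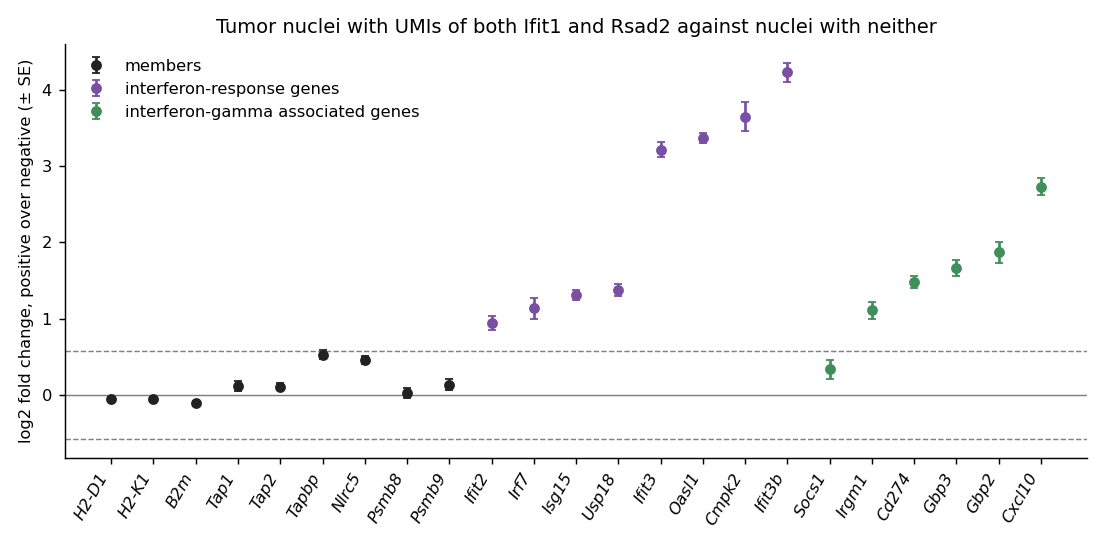
Log2 fold change of tumor nuclei with UMIs of both Ifit1 and Rsad2 over nuclei with neither (vertical axis, point ± SE from edgeR, 6 libraries) for the 9 genes and the related lists. Nlrc5 (0.45) and Tapbp (0.53) lie above 0, the heavy chains lie at -0.05, and the interferon-stimulated genes reach 4.23.

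Other interferon genes were higher in the same nuclei, which had been chosen by genes of that response. All 8 genes of a list of interferon-stimulated genes were called higher, from 0.94 for Ifit2 to 4.23 for Ifit3b, a near copy of Ifit3. Of 6 genes associated with interferon gamma, 5 were called higher, including the chemokine Cxcl10 (2.73, SE 0.11), the guanylate-binding protein Gbp2 (1.87, SE 0.14) and the checkpoint ligand Cd274 (1.48, SE 0.076). Among the regulators, Stat2 (1.30, SE 0.053) and Irf1 (0.94, SE 0.071) were called higher, and Irf9 (0.54) and Irf2 (0.25) passed the adjusted p only. Psmb10 was the 1 gene called of 6 other proteasome genes (0.82, SE 0.16, adjusted p = 0.000452 by edgeR), whereas the constitutive subunit Psmb6 was at -0.25 (adjusted p = 0.0466 by edgeR). Of the 8 class Ib genes tested 0 were called, and H2-T22 (0.54, SE 0.065) passed the adjusted p. Of 5 loading genes 0 were called, and Erap1 (0.41, SE 0.10) passed the adjusted p. None of the 4 interferon receptors and none of the 5 class II genes passed.

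Positive nuclei differed from negative ones in depth and in leukocyte markers. Their median was 9671 UMIs against 4772, and 35.7% of them held a macrophage marker UMI against 20.8%. Ptprc was higher in them by 0.75 on the log2 scale (adjusted p = 6.74e-08 by edgeR), at 1.28% to 4.62% of the macrophage level against 0.884% to 2.81%, while the class II sum was at 4.06% to 9.30% against 4.00% to 12.6%. Among tumor nuclei without any macrophage or T/NK marker UMI the differences were larger, and both genes were called, Nlrc5 at 0.60 (adjusted p = 3.15e-08 by edgeR) and Tapbp at 0.65 (adjusted p = 7.50e-07 by edgeR). Thinning to 1000 UMIs left 130 nuclei with both genes, and Nlrc5 (0.71, adjusted p = 0.194 by edgeR) and Tapbp (0.30, adjusted p = 0.769 by edgeR) then missed the threshold.

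The design compares KO with CO hosts. In tumor nuclei, where the host genotype is not that of the tumor cells, 0 of the 9 genes were called, and 0 of 13094 genes were (0%). By edgeR 859 genes had an unadjusted p under 0.05, none of them among the 9, and DESeq2 called 31 genes, also none of the 9. The levels of H2-D1 given above averaged 2296 ± 793 CPM in CO and 1237 ± 1016 in KO (SD, n = 3 libraries each). KO 1 lay within the CO range and KO 2 and KO 3 lay below it, so the groups overlapped. The log2 fold change of H2-D1 was -0.86 (SE 0.59, adjusted p = 0.592 by edgeR). H2-K1 averaged 2721 ± 988 CPM over the CO libraries and 1726 ± 1196 over the KO libraries (SD), which is -0.61 on the log2 scale (SE 0.52, adjusted p = 0.608 by edgeR).

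The other 7 genes gave a similar picture in tumor nuclei. Psmb8 stood at 148, 120 and 77.3 CPM in CO and 112, 34.8 and 54.0 in KO, a difference of -0.74 on the log2 scale (SE 0.42). Psmb9 stood at 104, 87.0 and 63.6 in CO and 79.2, 41.1 and 64.4 in KO, a difference of -0.41 on the log2 scale (SE 0.26). B2m was at -0.42 (SE 0.35), Tap2 at -0.42 (SE 0.23), Tapbp at -0.41 (SE 0.21) and Tap1 at -0.20 (SE 0.21). Nlrc5 was the only one with a positive value, at 0.28 (SE 0.21). Tapbp was the only one of these whose groups did not overlap, with every KO value below every CO value. Adjusted p values ran from 0.592 to 0.657, and the median of the 9 was -0.42 beside -0.022 for all genes. Leaving out KO 1 changed the calls, and H2-D1 (-1.71, adjusted p = 0.0312 by edgeR), H2-K1 (-1.29, adjusted p = 0.0460 by edgeR) and Psmb8 (-1.30, adjusted p = 0.0312 by edgeR) were then called lower, together with 2827 genes in all, 914 higher and 1913 lower. With all 6 libraries 13094 genes were tested, and the number tested without KO 1 is not given here. These calls therefore do not set the 9 apart from other genes.

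**Figure D4:**
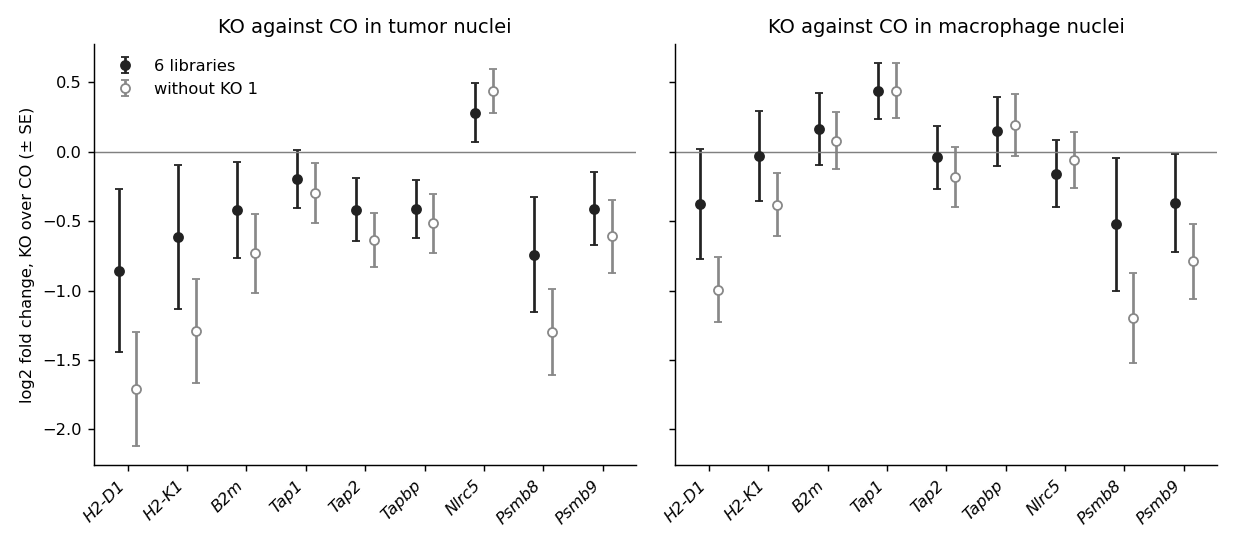
Log2 fold change of KO over CO (vertical axis, point ± SE from edgeR) for the 9 genes in tumor nuclei and in macrophage nuclei, with all 6 libraries (filled) and without KO 1 (open). H2-D1 in tumor nuclei moves from -0.86 to -1.71 when KO 1 is left out, and with all 6 libraries none of the genes was called.

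The order of the libraries in tumor nuclei was much the same for 8 of the 9 genes. CO 1 was highest and KO 2 lowest for each of them, and KO 1 stood next to CO 2 for all but Tapbp. The highest library exceeded the lowest by 6.77 times for H2-D1, 4.32 times for H2-K1, 4.26 times for Psmb8, 2.77 times for B2m and 1.76 times for Tap1. Nlrc5 had another order, with KO 3 highest and CO 2 lowest and a ratio of 1.57. The Nlrc5 gene spans 92917 bases, beside 3734 (Psmb8) to 13394 (Tapbp) for the other 8, and the part of gene length was not tested. The summed ribosomal protein genes ran from 14046, 11949 and 8589 CPM in CO to 13740, 3998 and 6031 in KO, and mitochondrial transcripts from 100260, 92399 and 61623 to 97216, 56813 and 58310. Both sums had the order CO 1, KO 1, CO 2, CO 3, KO 3, KO 2, which was also that of H2-K1 and B2m. Their part in the differences between libraries was not tested.

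**Figure D5:**
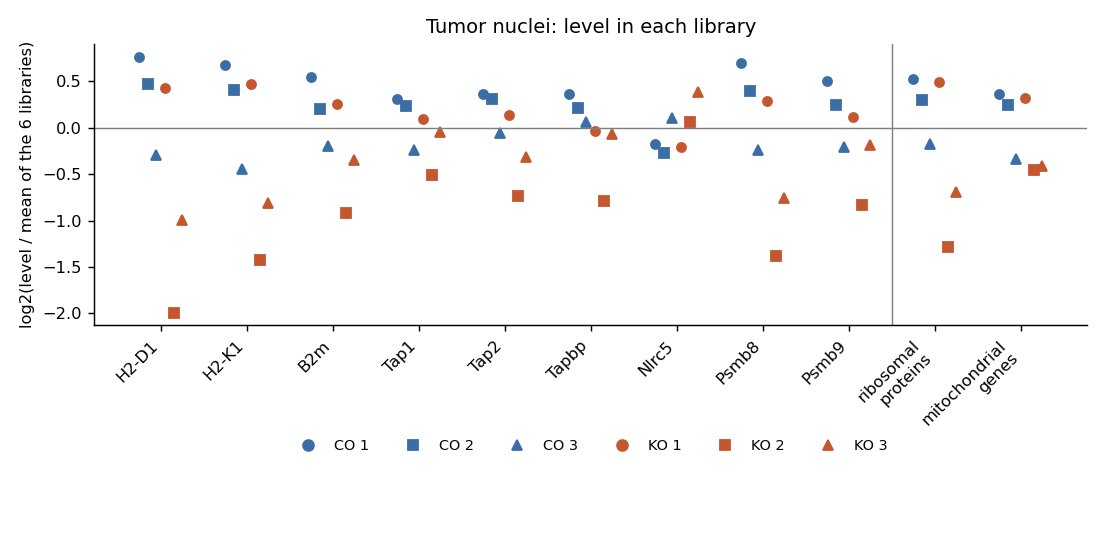
Level in tumor nuclei of each library relative to the mean of the 6 libraries (log2, vertical axis) for the 9 genes and, for RNA quality, the summed ribosomal protein and mitochondrial genes. For 8 genes and both sums KO 2 is at or below every other library and CO 1 is the highest, and Nlrc5 differs, with KO 3 highest.

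In macrophage nuclei, which carry the host genotype, 0 of the 9 genes were called and 0 of 9553 genes were (0%). By edgeR 603 genes had an unadjusted p under 0.05, none of them among the 9, and DESeq2 called 13 genes, none of the 9. Log2 fold changes ran from -0.52 for Psmb8 (SE 0.48) to 0.44 for Tap1 (SE 0.20, adjusted p = 0.788 by edgeR). Tap1 stood at 102, 88.5 and 94.0 CPM in CO and 126, 123 and 129 in KO, so the groups did not overlap. H2-D1 was at -0.38 (SE 0.39), H2-K1 at -0.031 (SE 0.32) and B2m at 0.17 (SE 0.26). Tap2 was at -0.039 (SE 0.23), Tapbp at 0.15 (SE 0.25), Nlrc5 at -0.16 (SE 0.24) and Psmb9 at -0.37 (SE 0.35). Leaving out KO 1 gave 3 calls, H2-D1 at -0.99 (adjusted p = 0.00789 by edgeR), Psmb8 at -1.20 (adjusted p = 0.0160 by edgeR) and Psmb9 at -0.79 (adjusted p = 0.0468 by edgeR), among 1729 genes in all. The number of genes tested without KO 1 is not given here (9553 with all 6 libraries), so the 3 calls do not set these genes apart. The summed ribosomal protein genes in macrophage nuclei stood at 17436, 17236 and 13344 CPM in CO and 21048, 5987 and 10519 in KO, the same order of libraries as that of H2-D1 there. Their part in these calls was not tested.

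In T/NK nuclei 7 of the 9 genes passed the filter on low counts, all but Tap1 and Psmb9. Of these 0 were called, and 0 of 2114 genes were (0%). By edgeR 94 genes had an unadjusted p under 0.05, none of the 7 among them, and DESeq2 called 0. The fold changes ran from -0.72 for Psmb8 (SE 0.59) to 0.22 for Tap2 (SE 0.39). H2-D1 was at -0.59 (SE 0.43), H2-K1 at -0.26 (SE 0.41), B2m at 0.12 (SE 0.36), Tapbp at -0.44 (SE 0.36) and Nlrc5 at 0.074 (SE 0.31). In tumor nuclei with both interferon genes 0 of the 9 genes were called, and 0 of 10711 genes were (0%). By edgeR 778 genes (7.26%) had an unadjusted p under 0.05, among them Psmb8 (-0.96, SE 0.41, adjusted p = 0.601) and Tapbp (-0.46, SE 0.19, adjusted p = 0.601), and DESeq2 called 2 genes, none of the 9. H2-D1 was at -0.87 (SE 0.57), H2-K1 at -0.64 (SE 0.50), B2m at -0.45 (SE 0.33), Tap1 at -0.40 (SE 0.18), Tap2 at -0.49 (SE 0.23), Psmb9 at -0.40 (SE 0.35) and Nlrc5 at 0.037 (SE 0.26). Without KO 1, H2-D1 (-1.76), H2-K1 (-1.33), Psmb8 (-1.52) and Tap2 (-0.73) were called lower, among 1967 genes. How many genes that fit tested is not given here (10711 with all 6 libraries), so these calls do not set the 9 apart.

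Whether the differences within tumors depended on the host group was tested with interaction terms. The difference between interferon-positive and negative tumor nuclei differed between KO and CO in 0 of the 9 genes and in 5 of 11710 genes (0.0427%). Nlrc5 came nearest, at -0.30 (SE 0.087, adjusted p = 0.478 by edgeR), with log2 ratios of 0.57, 0.47 and 0.75 in CO and of 0.28, 0.33 and 0.32 in KO. DESeq2 called 0 genes, and 2 of the 9 (Nlrc5 and Psmb8, the latter at -0.33, SE 0.12) had an unadjusted p under 0.05, against 536 of all genes (4.58%). The other values were -0.061 for H2-D1, -0.078 for H2-K1, -0.036 for B2m, -0.18 for Tap1, -0.10 for Tap2, -0.050 for Tapbp and -0.016 for Psmb9. The difference between tumor and macrophage nuclei differed in 0 of the 9 genes and in 1 of 12455 genes (0.00803%). Here 6 of the 9 had an unadjusted p under 0.05 without passing the adjustment, against 944 of all genes (7.58%), namely H2-K1 (-0.72, SE 0.26), Tap1 (-0.67, SE 0.22), B2m (-0.65, SE 0.26), H2-D1 (-0.61, SE 0.24), Tapbp (-0.59, SE 0.19) and Tap2 (-0.41, SE 0.19). All 6 values were negative, meaning a lower ratio of tumor over macrophage nuclei in libraries labelled KO, and the adjusted p over the 9 ranged from 0.426 to 0.997. Nlrc5 was at 0.37 (SE 0.18), Psmb8 at -0.18 (SE 0.24) and Psmb9 at -0.034 (SE 0.22). DESeq2 called 14 genes here, none of the 9. Without KO 1, B2m and H2-K1 were called (-0.89 and -0.97), among 218 genes, and the number tested in that fit is not given here. Tumor markers in macrophage nuclei were higher in KO 2 and KO 3 than in the other libraries, as given above, and their part in these ratios was not tested.

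The genes whose pattern over the 18 sums of library and class was most like the mean of the 9 were Srsf9 (Pearson's r = 0.975), Rpp25l (0.966), Tceal8 (0.965), Ube2m (0.963) and Eif6 (0.961), of 10546 genes compared. Of the 9 themselves, H2-D1 (0.957), H2-K1 (0.939) and Psmb8 (0.928) followed the mean most closely, and Nlrc5 did not (-0.18). Each of the 9 is part of that mean, so their values are not independent of it. The 18 sums came from 6 libraries and share their depth and RNA quality, so these values describe likeness across sums only.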

How the data were processed

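The authors isolated nuclei from frozen tumors, some with extra washes (which is not stated), built droplet-based 3′ libraries (Chromium v3.1) and counted UMIs with Cell Ranger against GRCm38; version 3.0.2 is in the submitters' processing notes and 3.1.0 in the file headers. They also list Seurat 5.2.1. The deposited values are raw counts per gene and barcode; whether intronic reads were counted is not given in the sources used here. The members and lists were chosen with earlier results of these data known, and all 9 genes are named in every comparison.

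Nuclei with 100 to 7500 genes and under 20% mitochondrial counts were kept. A tumor nucleus had at least 60 tumor-marker UMIs per 10000 (and at least 10) and under 10 of macrophage and T/NK markers; a host nucleus had at least 15 (and at least 3) of its own. These cut-offs were set after the marker counts, and before the levels of the 9 genes, were seen. The tumor markers were Mecom, Slit2, Hmga2, Igf2bp2, Igf2bp3, Etv4, Msln, Pthlh, Crabp1 and Adamtsl5. The macrophage markers were Csf1r, Mrc1, Adgre1, Cd300lf, Fgd2, P2ry6, Gm5150, Abcg3, Cd84 and Ms4a7. The T/NK markers included Themis, Skap1, Ikzf3, Bcl11b, Cd247, Prkcq, Cd3e, Cd3g and Klrk1. Some genes of the lists are not reported here. Near the cut (within 10%) lay 603 nuclei by tumor and 349 by macrophage markers. Doublets were not scored with a caller; nuclei with markers of several classes were set apart, and doublets within a class stay.

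Counts were summed per library and class and tested with edgeR 4.0.16 (quasi-likelihood, TMM, its filter on low counts, R 4.3.3), with the library as a block within tumors and no covariate between CO and KO. Groups and replicate numbers came from the sample titles; the labels do not say that replicates are separate animals, so p-values measure the spread between these samples. Replicates differed beyond sampling noise (chi-square per degree of freedom 8.60 to 196). Shares were tested by exact permutation over libraries (Python 3.11.15, numpy 2.4.6, scipy 1.17.1). Figures used matplotlib 3.10.9. The fits were also run on simulated counts with the same dispersion in every comparison, which these data do not share. The outcome is not reported here. Alternatives were DESeq2 1.42.0, its size factors in edgeR, no filter on low counts, a stricter marker rule, at least 500 genes and under 5% mitochondrial counts, thinning to 1000 UMIs, tumor nuclei without a macrophage or T/NK marker UMI, either interferon gene, no library block, a replicate block and each library left out.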

Additional observations from a re-analysis of the deposited data

Results flagged for a closer look

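In 2 cases every CO library moved one way and every KO library the other. Tapbp was higher in tumor than in macrophage nuclei of the CO libraries, with log2 ratios of 0.14, 0.33 and 0.29, and lower in the KO libraries, with -0.12, -0.38 and -0.49. The interaction term was -0.59 (SE 0.19, adjusted p = 0.432 by edgeR), so the difference did not pass the correction over all genes, and the adjusted p ranged from 0.0505 to 0.935 over the alternatives. Psmb8 was higher in interferon-positive than in negative tumor nuclei of the CO libraries, with log2 ratios of 0.15, 0.12 and 0.067, and lower in the KO libraries, with -0.19, -0.19 and -0.16. Its interaction term was -0.33 (SE 0.12, adjusted p = 0.953 by edgeR) and turned positive after thinning to 1000 UMIs (1.44), and the adjusted p ranged from 0.704 to 1 over the alternatives. Among 9 genes and 2 contrasts, such a division by group was looked for 18 times.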

How the results depend on the processing

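Each of the 16 alternatives changed the analysis at a single step, except that the limits of 500 genes and 5% mitochondrial counts were set together and that DESeq2 changed the test along with its size factors, and 1080 values of the 9 genes were recomputed. Direction turned in 86 of them, 38 on leaving out a library and 48 in other settings, and in none of these did the adjusted p reach 0.05 in either fit. The cause of these changes was not tested.

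The number of the 9 genes called moved as follows. The share of all genes called in each of these settings is not given here, so the counts alone do not set the 9 apart from other genes. The same holds for the calls without KO 1 given above. Between tumor and macrophage nuclei it was 0, and it was 1 under the stricter marker rule (Psmb9), 1 with at least 500 genes and under 5% mitochondrial counts (B2m), 2 after thinning (Nlrc5 and Psmb9) and 0 to 2 with a library left out. Between tumor and T/NK nuclei it was 1, and it was 0 without the filter on low counts, 0 under the stricter marker rule, 3 with at least 500 genes and under 5% mitochondrial counts (B2m, Tapbp and H2-K1), 0 without marker UMIs of macrophage or T/NK cells, 0 without the library block and 0 to 1 with a library left out. Between interferon-positive and negative tumor nuclei it was 0, and it was 1 with at least 500 genes and under 5% mitochondrial counts (Tapbp) and 2 without marker UMIs of macrophage or T/NK cells. Between KO and CO it was 0 in each class, and with a library left out it was 0 to 3 in tumor nuclei, 0 to 3 in macrophage nuclei, 0 to 4 in interferon-positive tumor nuclei and 0 to 2 for the difference between tumor and macrophage nuclei. All of these KO calls came from leaving out KO 1. Shares of tumor and macrophage nuclei with a UMI passed for 9 of 9 genes without thinning and for 0 of 9 with it, an alternative chosen after seeing the data.

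Counts over all genes moved by more than 1.5 times in these cases. Between tumor and T/NK nuclei 4020 genes were called and 2064 after thinning. For the interferon comparison 264 were called, 128 with at least 500 genes and under 5% mitochondrial counts, 59 after thinning, 162 with either interferon gene and 77 without the library block. Between KO and CO 0 were called, and with DESeq2 31 in tumor nuclei, 13 in macrophage nuclei and 2 in interferon-positive tumor nuclei, and without the filter 40 in macrophage and 29 in T/NK nuclei. Without KO 1 there were 2827, 1729, 54 and 1967 calls in tumor, macrophage, T/NK and interferon-positive tumor nuclei. For the interferon difference between KO and CO 5 were called, 0 by DESeq2, 24 without the filter, 11 with at least 500 genes and under 5% mitochondrial counts, 0 after thinning, 0 without marker UMIs, 1 with either gene and 0 to 7 with a library left out. For the difference between tumor and macrophage nuclei 1 was called, 14 by DESeq2, 0 with its size factors, 96 without the filter, 0 with at least 500 genes, 0 after thinning and 0 to 218 with a library left out.

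Whether numbers shared by CO and KO libraries mark a pairing could not be decided from these values. In tumor nuclei, deviations from the group means correlated at 0.60, -0.32 and 0.45 for numbers 1, 2 and 3. Not every library correlated best with its own number, and CO 3 correlated with KO 2 at 0.53. Deviations from a mean of 3 libraries depend on each other, so such correlations cannot exclude a pairing. With a replicate block 0 genes, and 0 of the 9, were called between KO and CO in each class.

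Values that turned, on the log2 scale, were small in most cases. For tumor over macrophage nuclei, H2-D1 was -0.26 with at least 500 genes and under 5% mitochondrial counts. H2-K1 was 0.053 with DESeq2, 0.055 with its size factors, 0.14 without the filter, 0.066 under the stricter rule, 0.058 after thinning, 0.0097 without marker UMIs and 0.13 without the block. Tapbp was 0.032 without the filter. For tumor over T/NK nuclei, H2-D1 was 0.11 without the filter, 0.26 under the stricter rule, 0.039 after thinning, 0.0065 without marker UMIs and 0.11 without the block. Tap2 was -0.026 with DESeq2, -0.041 with its size factors and -0.41 with at least 500 genes and under 5% mitochondrial counts, Tapbp was 0.14 under the stricter rule and 0.16 after thinning, and Psmb8 was 0.23 after thinning. For interferon-positive over negative tumor nuclei, either gene gave 0.00050 for H2-D1 and 0.0062 for H2-K1, thinning gave -0.27 for Tap1, -0.28 for Tap2 and -0.39 for Psmb8, and Psmb8 was -0.00316 without the filter and -0.00716 under the stricter rule. For KO over CO, Tap1 in tumor nuclei was 0.0081 with at least 500 genes and under 5% mitochondrial counts, H2-K1 and Tap2 in macrophage nuclei were 0.056 and 0.26 after thinning, Nlrc5 in T/NK nuclei was -0.10 with at least 500 genes, and Nlrc5 in interferon-positive tumor nuclei was -0.062 with at least 500 genes and -0.45 after thinning. For the interferon difference, the stricter rule gave 0.021 for B2m, 0.022 for Tapbp and 0.00141 for Psmb9, and thinning gave 0.093 for B2m, 0.089 for Tap2, 1.44 for Psmb8 and 0.92 for Psmb9. Psmb9 was also 0.038 with DESeq2, 0.00256 with its size factors, 0.012 with at least 500 genes and 0.17 without marker UMIs. For the difference between tumor and macrophage nuclei, Psmb9 was 0.080 with DESeq2, 0.044 with its size factors, 0.11 without the filter and 0.25 after thinning.

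With a library left out, the ranges that crossed 0 were these. For tumor over macrophage nuclei they were -0.018 to 0.29 for H2-D1, -0.13 to 0.21 for H2-K1 and -0.18 to 0.045 for Tapbp. For tumor over T/NK nuclei they were -0.098 to 0.099 for H2-D1, -0.33 to 0.053 for Tap1, -0.11 to 0.23 for Tap2 and -0.40 to 0.013 for Psmb9. Psmb8 ranged from -0.045 to 0.067 for the interferon comparison. For KO over CO they were -0.38 to 0.16 for H2-K1, -0.18 to 0.071 for Tap2 and -0.073 to 0.30 for Tapbp in macrophage nuclei, -0.050 to 0.25 for B2m and -0.16 to 0.21 for Nlrc5 in T/NK nuclei, and -0.11 to 0.24 for Nlrc5 in interferon-positive tumor nuclei. For the interferon difference they were -0.084 to 0.00029 for H2-D1, -0.069 to 0.0075 for B2m, -0.20 to 0.045 for Tapbp and -0.16 to 0.12 for Psmb9. For the difference between tumor and macrophage nuclei they were -0.24 to 0.022 for Psmb8 and -0.16 to 0.20 for Psmb9.

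Depth limits the T/NK values, which rest on 443 nuclei of 958 UMIs at the median, and the interferon comparison after thinning, which rests on 130 positive nuclei.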

Other observations

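Nuclei outside the 3 classes also held the class I genes. In the 4074 unclassified nuclei, whose median depth was 801 UMIs, H2-D1 stood at 4645, 3351 and 2593 CPM in CO and 3259, 1111 and 1606 in KO. H2-K1 stood there at 5334, 4075 and 3084 in CO and 4234, 2205 and 2699 in KO. In macrophage nuclei with UMIs of both Ifit1 and Rsad2, of which a library held 2 to 24, Nlrc5 averaged 661 ± 139 CPM over the 6 libraries (SD), beside 300.5 ± 51.4 in macrophage nuclei with neither gene. These values were not tested.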
